A study of Homo sapiens with 9 samples.

Results

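The LINC RNAs described here are the long intergenic noncoding RNAs that MDA-MB-231 cells held at a measurable level. They are the rows of the deposited table whose symbol is LINC followed by 5 digits and whose mean over the 9 libraries was at least 50 normalised reads. This rule took 120 rows (119 symbols) of 1706 LINC rows and of 46846 features in all. Of the other LINC rows, 1015 had no read in any library and 99 had a mean of at least 10 and under 50. Just inside the limit were LINC01347 (mean 53.6), LINC00926 (53.1) and LINC01137 (52.1), and just outside it were LINC01273 (49.7), LINC00999 (49.3) and LINC01776 (48.7). The members were thus chosen by their mean normalised count over all 9 libraries, and a member can owe its place to 1 group. Without the pladienolide B libraries 5 would have missed the limit, among them LINC00628, LINC00537 and LINC00235, and these 3 were bound to stand high with that drug. Without the indisulam libraries 5 others would have missed it, LINC02246 among them, and 4 would have missed it without the DMSO libraries.

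MDA-MB-231 is an established human cell line from a triple-negative breast cancer. The cells were seeded 24 h before treatment, and the labels name no genetic change. Each group had 3 libraries: the solvent control DMSO, whose time is labelled as 12 h, indisulam at 3.3 µM over 12 h, and pladienolide B at 10 nM over 6 h. Pladienolide B was thus set against a control of another duration, and drug and time cannot be told apart in that comparison. Indisulam is a sulfonamide that glues RBM39, a splicing factor, to the ubiquitin ligase receptor DCAF15, and RBM39 is then degraded. Pladienolide B binds the SF3b complex, which recognises the branch site of introns. Libraries of 1 group are labelled as replicas, with nothing said of separate cultures, so p-values cover only the spread among those libraries, which may be technical.

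The libraries held 59312100 to 83910831 reads, and no member value was at or under 3 reads. After the authors' scaling, the normalised total was 61016460 ± 574381 (SD, n = 3) in DMSO, 63349449 ± 409132 after indisulam and 84689853 ± 2607968 after pladienolide B. Mitochondrial features held 8.72%, 9.93% and 13.8% of it. The part of these shifts in the results below was not tested, beyond the other scalings given with the limits. The markers VIM, CD44, AXL, FN1 and EGFR of a mesenchymal-like line were all expressed, and ESR1, PGR and FOXA1 had means of 2.23 or less. KRT8, a keratin listed as low, was high (mean 56682). Leukocyte markers summed to 65.2 to 164 normalised reads in a library, highest with pladienolide B (108 to 164), and endothelial markers summed to 39.1 to 93.4. In these bulk samples, fewer cells with an RNA and less of it per cell cannot be told apart.

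Long intergenic noncoding RNAs are transcribed by RNA polymerase II from loci between protein-coding genes, and many are capped, spliced and polyadenylated like messenger RNA. They are often weakly spliced and short-lived, since the nuclear exosome degrades many of them. A few act as scaffolds, decoys or regulators of a neighbouring gene, and for most the LINC number is the only name. A transcript with a single exon has no intron for the spliceosome to remove, whereas a spliced one needs both SF3b and, at some exons, RBM39.

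Of the 120 rows, 114 matched a gene of GENCODE release 29 (GRCh38), 106 by name and 8 by gene identifier, and 89 of these were annotated as lincRNA. LINC02693 matched by identifier a gene that this release called protein-coding. In 18 members every transcript had 1 exon, and in 96 at least 1 transcript had more. The 3 junctions below join exon 1 to exon 2 of 3 spliced members described below, LINC00472, which rose with indisulam, and LINC02210 and LINC00847, which fell with pladienolide B. Each shows 25 bases of either exon from the reference genome, with the last 3 bases of exon 1 and the first base of exon 2 in capitals. The introns between them are 2622, 1535 and 529 bases long, in this order.
LINC00472: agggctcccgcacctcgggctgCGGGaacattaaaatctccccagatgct
LINC02210: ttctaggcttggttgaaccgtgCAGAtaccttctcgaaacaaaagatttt
LINC00847: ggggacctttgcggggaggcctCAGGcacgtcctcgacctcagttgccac

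The 3 sequences that follow are the last 60 bases of single-exon members that rose with pladienolide B. Capitals mark the polyadenylation signal (AATAAA or ATTAAA), by which an unspliced transcript can enter a poly-A library. Coordinates are on GRCh38: chr1:204368431-204368490 on the minus strand for LINC00628, chr1:826206-826265 on the minus strand for LINC00115, chr22:19172780-19172839 on the plus strand for LINC01311.
LINC00628: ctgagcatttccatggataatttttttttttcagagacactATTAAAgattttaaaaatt
LINC00115: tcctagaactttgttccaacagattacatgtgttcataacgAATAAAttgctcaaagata
LINC01311: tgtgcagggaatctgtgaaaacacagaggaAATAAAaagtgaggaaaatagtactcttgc

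Such a signal lay within the last 50 bases of at least 1 transcript in 14 of 18 single-exon members and in 72 of 96 members with more exons. The share over all 7874 genes with a lincRNA transcript, expressed here or not, was 54.0%, counting their lincRNA transcripts only. The members were chosen by their level in poly-A libraries, so the sets are unlike and the shares are not a test.

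Members were low beside messenger RNAs. Their means ran from 52.1 to 4301 with a median of 148, while 11374 protein-coding features with a mean of at least 50 had a median of 1536. In all, 15 members had a mean of at least 1000, 65 lay between 100 and 1000, and 40 lay below 100. Their share of the normalised signal was 0.0806 ± 0.00134% (SD, n = 3) in DMSO, 0.0876 ± 0.00268% after indisulam and 0.0691 ± 0.00275% after pladienolide B. The normalised total under this share was 61016460 in DMSO and 84689853 after pladienolide B. The lower share after pladienolide B is thus not a lower summed count of the members. Within a group the median coefficient of variation of a member was 14.0% for DMSO, 12.2% for indisulam and 15.1% for pladienolide B. Of the 120, 94 overlapped no tested feature and 14 overlapped one of higher mean. The kit keeps the strand, but the strand setting of the counting is not given in the sources used here, so reads of such overlapping pairs cannot be told apart.

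The member with the highest normalised count was LINC00674, at chr17:68101555-68135932 and annotated as a transcribed pseudogene. It stood at 4187, 4143 and 3925 in the DMSO libraries, 4250.1, 4196 and 3945 with indisulam and 4622, 4937 and 4503 with pladienolide B. The pladienolide B values lay above all others, with a log2 fold change of 0.20 ± 0.06 (± SE, as for every log2 fold change here; limma adjusted p = 0.0109), lost with TMM scaling, with quantile normalisation and without DMSO replicate 3, and -0.27 when all libraries were given the same total. Next came LINC00472, LINC02693, LINC01000, LINC01224 and LINC00205. LINC02693 stood at 2879, 3094 and 3242 in DMSO, 3156, 3375 and 3831 with indisulam and 2347, 3538 and 3295 with pladienolide B. Its groups overlapped and neither drug was called. Per kilobase of annotated exon, the DMSO level was 5565 for LINC00674, 875 for LINC01116, 849 for LINC02595 and 604 for LINC00472. The exon lengths are those of GENCODE and can differ from what the authors counted.

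With indisulam, 22 LINC RNAs rose, 12 fell and 86 did not pass (limma adjusted p under 0.05 over 16846 features with a mean of at least 10). The largest rise was in LINC02246 and the largest by read number in LINC00472, and the largest fall was in LINC00899. LINC02246 reached a mean of 50 only through the indisulam libraries, so its indisulam values were bound to be high. The 34 called members make 28.3%, beside 26.9% of all features tested and 31.3% of features with a mean of at least 50. The shares of rises and falls over all features were 14.5% and 12.4%. The median log2 fold change was 0.05 in the members and 0.05 over all features, so the members as a group stood where other features did. At least 2-fold changes were called in 4 members upward and 5 downward, or 7.5%, beside 3.64% of all features tested and 2.77% of those with a mean of at least 50. In 52 members the indisulam and DMSO values did not overlap (43.3%, beside 48.4% of all features tested and 53.8% of those with a mean of at least 50). Upward 2-fold calls made 1.61% of the latter. Of the 99 LINC rows with a mean of at least 10 and under 50, 8.08% were called.

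LINC00472, studied as a growth-suppressing RNA in breast cancer, is transcribed from chr6:71407864-71420745 on the minus strand. Its DMSO values were 1877, 2196 and 2166, the indisulam values 5529, 4979.8 and 6297 and the pladienolide B values 3900.0, 3351 and 4264. No groups overlapped, with indisulam highest. The rise was 1.43 ± 0.10 on the log2 scale with indisulam (limma adjusted p = 1.87e-06) and 0.88 ± 0.10 with pladienolide B (limma adjusted p = 3.48e-06). The drugs themselves differed by -0.55 ± 0.10 for pladienolide B against indisulam (limma adjusted p = 0.000293). LINC00472 overlaps OGFRL1, an opioid growth factor receptor-like gene on the other strand with a mean of 19036, so part of its reads could belong to that gene. OGFRL1 itself changed by 0.14 ± 0.05 with indisulam, which did not pass, and by 0.31 ± 0.05 with pladienolide B.

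LINC02246 (chr21:14816838-14918668, minus strand) stood at 14.2, 42.9 and 25.5 in DMSO and at 138, 137 and 75.2 with indisulam. The pladienolide B values of LINC02246 were 34.1, 14.2 and 38.1, which overlapped the DMSO range. Its log2 fold change with indisulam was 2.12 ± 0.44 (limma adjusted p = 0.00331), and it was -2.05 ± 0.44 for pladienolide B against indisulam (limma adjusted p = 0.000947). Both differences rest on indisulam values that the choice of members favoured. LINC00174, a spliced RNA with up to 24 exons, stood at 76.2, 114 and 106 in DMSO and at 232, 189 and 182 with indisulam, with no overlap (1.03 ± 0.23, limma adjusted p = 0.00488). LINC01881 rose by 0.90 ± 0.19 from 119, 163 and 105 to 231, 234 and 245 (limma adjusted p = 0.00395).

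The remaining rises among the 8 largest were in LINC00537, LINC00938, LINC02012 and LINC01560. LINC02012, with 1 exon, stood at 68.7, 62.7 and 60.1 in DMSO, 116, 115 and 135 with indisulam and 74.2, 58.0 and 59.6 with pladienolide B. Its indisulam values lay clear of both other groups (0.92 ± 0.20, limma adjusted p = 0.00427). LINC00537 rose by 1.12 ± 0.37 (limma adjusted p = 0.0396), a rise lost in 5 of the 20 alternative analyses, among them without DMSO replicate 1, indisulam replicate 1 or indisulam replicate 3 (adjusted p up to 0.139).

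Among the falls, LINC00899 (chr22:46039909-46044868, minus strand) stood at 183, 153 and 223 in DMSO and at 82.4, 59.8 and 75.2 with indisulam. The groups did not overlap, and the fall was -1.35 ± 0.21 (limma adjusted p = 0.000488). LINC01138, which binds the arginine methyltransferase PRMT5 in liver cancer cells, went from 196, 209 and 243 to 85.2, 84.1 and 113 (-1.20 ± 0.18, limma adjusted p = 0.000389). It also fell with pladienolide B, to 97.3, 119 and 120.5 (-0.94 ± 0.18, limma adjusted p = 0.000395). LINC01411 fell by 1.19 on the log2 scale (limma adjusted p = 0.013), a call lost without DMSO replicate 2 or indisulam replicate 3 (adjusted p up to 0.0629). LINC01173 fell by 1.02 (limma adjusted p = 0.031), lost without DMSO replicate 1, DMSO replicate 3 or indisulam replicate 1 and with no filter (up to 0.127). LINC01173 reached a mean of 50 only with the DMSO libraries counted, so its DMSO values were bound to be high. LINC02085 fell by 0.78 (limma adjusted p = 0.00995), lost without DMSO replicate 3 (0.0522). LINC01833 fell by 0.90 on the same scale, and LINC01806 and LINC02595 by 0.89 and 0.84. LINC00452 was also called lower, with overlapping groups (-1.05 ± 0.35, limma adjusted p = 0.0429), a call lost in 6 of the 20 alternatives, among them edgeR and the fits without DMSO replicate 2, DMSO replicate 3, indisulam replicate 1 or indisulam replicate 2 (adjusted p up to 0.176).

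**Figure D1:**
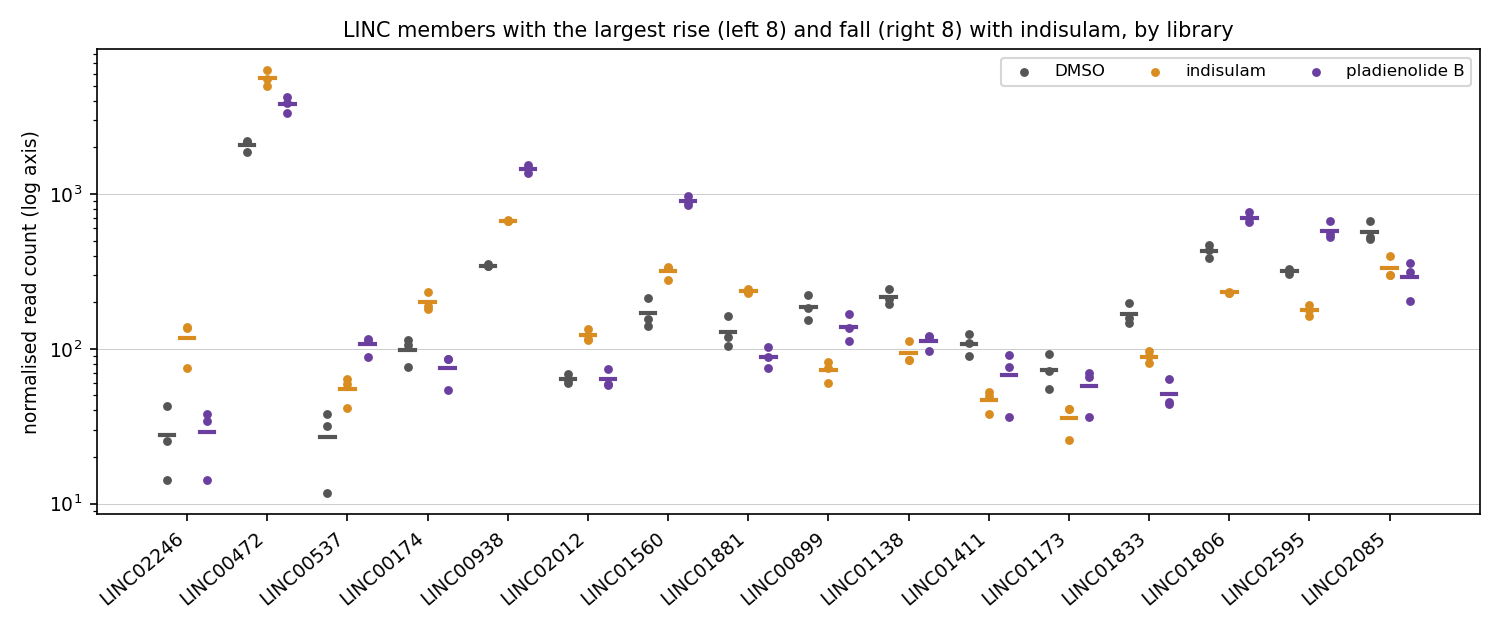
Normalised read count on a log axis for the 8 LINC RNAs with the largest called rise and the 8 with the largest called fall with indisulam, among members whose indisulam and DMSO values do not overlap. Points are libraries and bars are means of 3. LINC02246 at 75.2 to 138 lies above its DMSO and pladienolide B values, and LINC01806 and LINC02595 fall with indisulam and rise with pladienolide B. LINC02246 is a member only through its indisulam values.

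With pladienolide B, 32 LINC RNAs rose, 33 fell and 55 did not pass. These counts are of rows, and LINC01605 has a row called higher and another called lower. The balance depended on the scaling: with the same total per library 65 fell, and over all features the share of rises among calls went from 49.1% to 23.1%. The rises were led by LINC00628 and LINC00235, and the falls by LINC00638 and LINC01004. LINC00628 and LINC00235 reached a mean of 50 only through the pladienolide B libraries, so they were bound to stand high there. The 65 called members make 54.2%, beside 69.8% of all features tested and 76.5% of those with a mean of at least 50. Rises and falls made up 34.3% and 35.5% of all features. The members' lower levels move with this: 11 of 15 members with a mean of at least 1000 were called (9 higher, 2 lower), and 13 of 40 with a mean under 100 (5 higher, 8 lower); their part in the difference was not tested. Changes of at least 2-fold were called in 16 members upward and 17 downward, or 27.5%, the same share as over all features tested (27.5%). Upward ones made 13.3% of members beside 9.62% of all features, and downward ones 14.2% beside 17.9%. In 69 members the groups did not overlap (57.5%, beside 71.8% of all features and 77.9% of those with a mean of at least 50). Upward 2-fold calls made 7.21% of the latter, and 22.2% of the LINC rows with a mean of at least 10 and under 50 were called. The median log2 fold change was -0.02 in the members and -0.01 over all features. Without the 5 members that needed the pladienolide B libraries to reach the limit, 29 of 115 rose and 33 fell.

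LINC00628, a single-exon RNA studied as growth-suppressing in breast cancer, lies at chr1:204368430-204369719 on the minus strand. The values were 44.4, 54.5 and 32.6 in DMSO, 48.5, 27.4 and 39.7 with indisulam and 642, 865 and 718 with pladienolide B. The pladienolide B libraries stood far above the other 6, whose ranges overlapped (4.07 ± 0.25, limma adjusted p = 6.07e-09). Its nearest tested coding gene, PLEKHA6, a pleckstrin homology domain protein 8501 bp away on the same strand, fell by 2.35 ± 0.07 (limma adjusted p = 2.35e-11). LINC00628 did not pass with indisulam (-0.19 ± 0.25, adjusted p = 0.619).

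LINC00235 (chr16:526847-527407, minus strand) stood at 4.19, 14.9 and 11.2 in DMSO, where a limit of 3 reads is worth 2.48 to 3.06. With indisulam the values were 20.2, 20.3 and 13.6, and with pladienolide B 184, 135 and 159.8. The pladienolide B values lay above the rest without overlap (3.99 ± 0.40, limma adjusted p = 8.65e-07). The indisulam difference of 0.90 ± 0.40 did not pass (limma adjusted p = 0.117).

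The next rises were LINC00115, LINC01560, LINC01521, LINC00938, LINC00537 and LINC01311. LINC00115 (chr1:826206-827522, minus strand) stood at 126, 144 and 146 in DMSO, 165, 159 and 182 with indisulam and 935, 814 and 592 with pladienolide B. Pladienolide B was highest in every library (2.47 ± 0.16, limma adjusted p = 1.38e-08), and indisulam did not pass (0.28 ± 0.16). LINC01311 (chr22:19171395-19172831) stood at 95.5, 135 and 84.6, then 150.2, 132 and 137, then 414, 409 and 329 in the same order of groups (1.88 ± 0.18, limma adjusted p = 6.13e-07).

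LINC01560, LINC01521 and LINC00938 rose with both drugs and further with pladienolide B. LINC01560 (chrX:47482716-47485219) stood at 139.9, 214 and 157 in DMSO, 332, 339.6 and 279 with indisulam and 891, 969 and 847 with pladienolide B. LINC01521 (chr22:31346759-31351155) stood at 132, 104 and 99.9, then 207, 212 and 197, then 484, 654 and 586. LINC00938 (chr12:45725720-45727921) varied little within a group, at 352, 341 and 340.3 in DMSO, 666, 671 and 679 with indisulam and 1378, 1468 and 1537 with pladienolide B. In all of them the groups were ordered without overlap. The rises with indisulam were 0.91 ± 0.15, 0.88 ± 0.15 and 0.96 ± 0.09, and with pladienolide B 2.42 ± 0.15, 2.35 ± 0.15 and 2.08 ± 0.09. Pladienolide B exceeded indisulam by 1.51 ± 0.15 (limma adjusted p = 9.01e-07), 1.47 ± 0.15 (1.31e-06) and 1.12 ± 0.09 (5.65e-08). LINC00938 overlaps ARID2, a subunit of a chromatin remodelling complex, which fell by 0.99 ± 0.14 with pladienolide B.

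**Figure D2:**
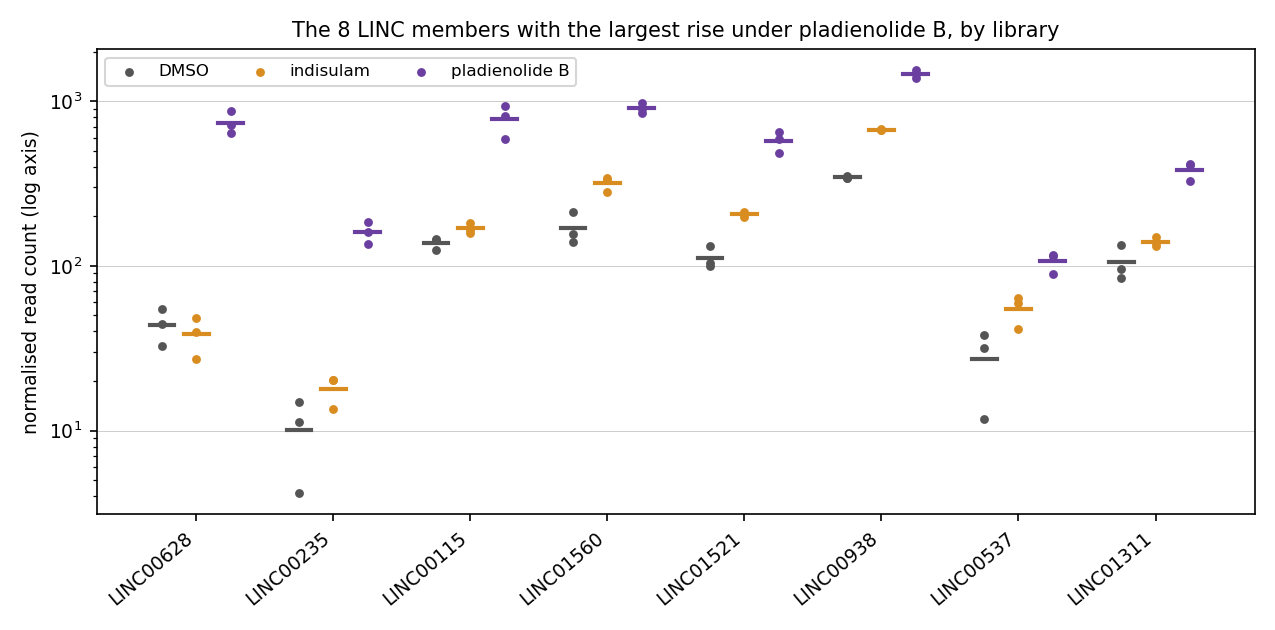
Normalised read count on a log axis for the 8 LINC RNAs with the largest called rise with pladienolide B. Points are libraries and bars are means of 3. All pladienolide B points lie above the DMSO points, from 4.19 to 14.9 against 135 to 184 in LINC00235 up to 340.3 to 352 against 1378 to 1537 in LINC00938.

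The 8 largest falls with pladienolide B lay between -1.59 and -2.95 on the log2 scale. LINC00638 (chr14:104821201-104823718), a single-exon RNA, stood at 241, 209.6 and 189.5 in DMSO, 177, 169 and 212 with indisulam and 47.2, 31.0 and 12.7 with pladienolide B. The pladienolide B libraries were lowest without overlap but spread widely among themselves (-2.95 ± 0.35, limma adjusted p = 3.69e-06). LINC01004 went from 373, 525 and 313 in DMSO to 122, 59.3 and 126 (-2.01 ± 0.26, limma adjusted p = 1.03e-05), with indisulam at 474, 379 and 381.

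LINC00847 (chr5:180830957-180835726) stood at 653, 679 and 729.6 in DMSO, 518, 508 and 501 with indisulam and 189, 166 and 171 with pladienolide B. It fell with both drugs, by 0.43 and by 1.96 on the log2 scale (limma adjusted p = 0.00877 and 2.02e-09). It overlaps HEIH, a noncoding RNA of higher mean (1355). LINC00339, which shares a locus with the GTPase gene CDC42, stood at 661, 686 and 655, then 751, 699.5 and 707, then 189.6, 193 and 170.0. Its pladienolide B values were lower without overlap (-1.85 ± 0.10, limma adjusted p = 2.28e-09), while CDC42, 21444 bp away, rose by 0.56 ± 0.06. LINC02210 (chr17:45620329-45648216) stood at 741, 593 and 567, then 682, 633 and 672, then 218, 191 and 219 (-1.59 ± 0.12, limma adjusted p = 5.45e-08). LINC00342, LINC00926 and LINC01833 fell by 1.80, 1.75 and 1.71 on the log2 scale. LINC00926 reached a mean of 50 only with the DMSO libraries counted, so its DMSO values were bound to be high.

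**Figure D3:**
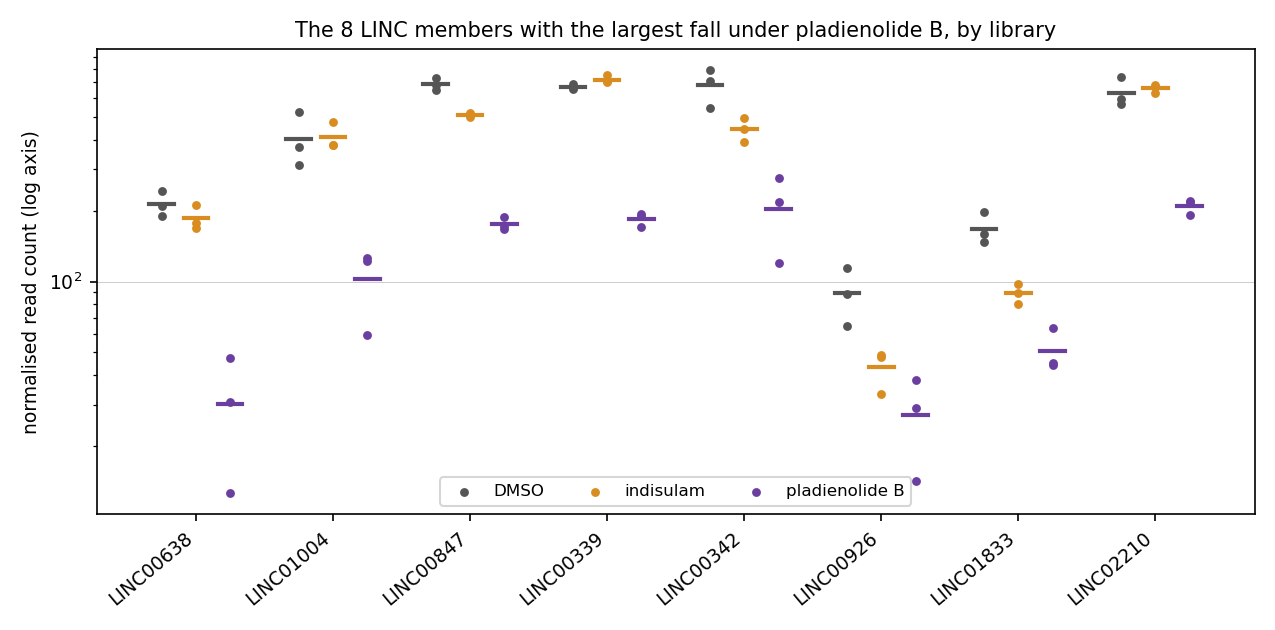
Normalised read count on a log axis for the 8 LINC RNAs with the largest called fall with pladienolide B. Points are libraries and bars are means of 3. All pladienolide B points lie below the DMSO points, as in LINC00638 with 12.7 to 47.2 against 189.5 to 241.

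Both comparisons share the 3 DMSO libraries, so their calls are given side by side only. By call, 13 members were higher with both drugs, 5 were lower with both, and 44 were called with neither. No share of all features called this way stands beside these counts, so they describe the members only. The pladienolide B fall of LINC01411, 1 of the 5 lower with both, passed narrowly (limma adjusted p = 0.0476) and was lost in 11 of 20 alternatives. LINC01224, LINC01881 and LINC02035 were higher with indisulam and lower with pladienolide B, and LINC01806 and LINC02595 the reverse. LINC01224 (chr19:23399233-23416074), one of the most abundant members, stood at 1863, 1888 and 1729 in DMSO, 3307, 3362 and 3303 with indisulam and 1413, 1424 and 1262 with pladienolide B. The 3 groups did not overlap (0.86 ± 0.07 and -0.42 ± 0.07, limma adjusted p = 4.54e-06 and 0.000127), and the drugs differed by -1.28 ± 0.07 (limma adjusted p = 2.94e-09). LINC01806 stood at 467, 388 and 433 in DMSO, 234, 229 and 231 with indisulam and 763, 655 and 696 with pladienolide B. LINC02595 had 305, 320.2 and 330.1, then 177, 193 and 164, then 528, 665 and 548. In both the groups were ordered without overlap, and pladienolide B exceeded indisulam by 1.60 ± 0.11 (limma adjusted p = 2.31e-08) and 1.70 ± 0.13 (4.56e-08). The pladienolide B call of LINC01806 did not survive giving every library 1 total (adjusted p = 0.0765). That of LINC01881 was lost without DMSO replicate 2 or pladienolide B replicate 2, among other settings (up to 0.145). Both calls of LINC02035 were lost in some settings, the indisulam one in 7 (up to 0.152) and the pladienolide B one without DMSO replicate 3 and with quantile normalisation (0.966).

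Between the drugs, 35 members were higher with pladienolide B and 37 higher with indisulam, 72 of 120, where 70.3% of all features tested and 77.8% of those with a mean of at least 50 were called. With the same total per library 15 members were higher with pladienolide B, and 20 of the 35 calls were lost in at least 1 alternative. LINC00628, LINC00235, LINC00115 and LINC00452 had the largest differences toward pladienolide B (4.26, 3.09, 2.18 and 1.75 on the log2 scale). Toward indisulam they were LINC00638, LINC01004, LINC02246 and LINC00339 (-2.75, -2.07, -2.05 and -1.96). LINC00628 and LINC00235 are members only through the pladienolide B libraries, and LINC02246 only through the indisulam libraries. LINC00452 stood at 68.7, 89.1 and 126 in DMSO, 23.8, 45.6 and 77.3 with indisulam and 133, 141 and 180.1 with pladienolide B, where only the last group lay clear of the others. Dose and duration differ between the drugs and cannot be told apart from them here.

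The members split by exon number. Of the 18 single-exon members, 9 rose and none fell with indisulam, and 11 rose and 2 fell with pladienolide B. The 9 were LINC00938, LINC01003, LINC01124, LINC01521, LINC01560, LINC01963, LINC02012, LINC02035 and LINC02604. The count of 0 falls came from limma, and it was also 0 at an unadjusted p under 0.05, with edgeR and with DESeq2. The 96 members with more exons gave 12 rises and 12 falls with indisulam, and 19 rises and 29 falls with pladienolide B. The medians of the single-exon members were 0.41 with indisulam and 0.68 with pladienolide B, beside -0.04 and -0.13 in those with more exons. Of the 8 largest rises with pladienolide B, 7 were in single-exon members and LINC00537 had no GENCODE match. LINC00628, LINC00235 and LINC00537 are among these 8 and reached a mean of 50 only through the pladienolide B libraries. Leaving out every member that did so, 9 of 16 single-exon members rose and 2 fell with pladienolide B, with a median of 0.31, beside 19 rises and 29 falls among 94 with more exons and a median of -0.13. LINC00638 and LINC02035 were the single-exon falls.

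Other features with a mean of at least 50 split the same way by exon number. Of 318 with 1 exon, 33.3% rose and 2.2% fell with indisulam (median 0.21), and 72.3% rose and 8.81% fell with pladienolide B (median 0.87). Of 11683 with more exons, 15.2% rose and 15.8% fell with indisulam, and 35.5% rose and 41.7% fell with pladienolide B. The split is therefore not particular to LINC RNAs. The count of single-exon rises with indisulam dropped to 5 when DMSO replicate 1 was left out and to 5 when indisulam replicate 3 was. By span, 22 of 56 members under 10 kb rose with pladienolide B and 13 fell (median 0.17). From 10 to under 50 kb 6 of 41 rose and 12 fell (median -0.22). Of 23 members spanning at least 50 kb 4 rose and 8 fell (median 0.04), so the medians showed no steady trend with length.

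**Figure D4:**
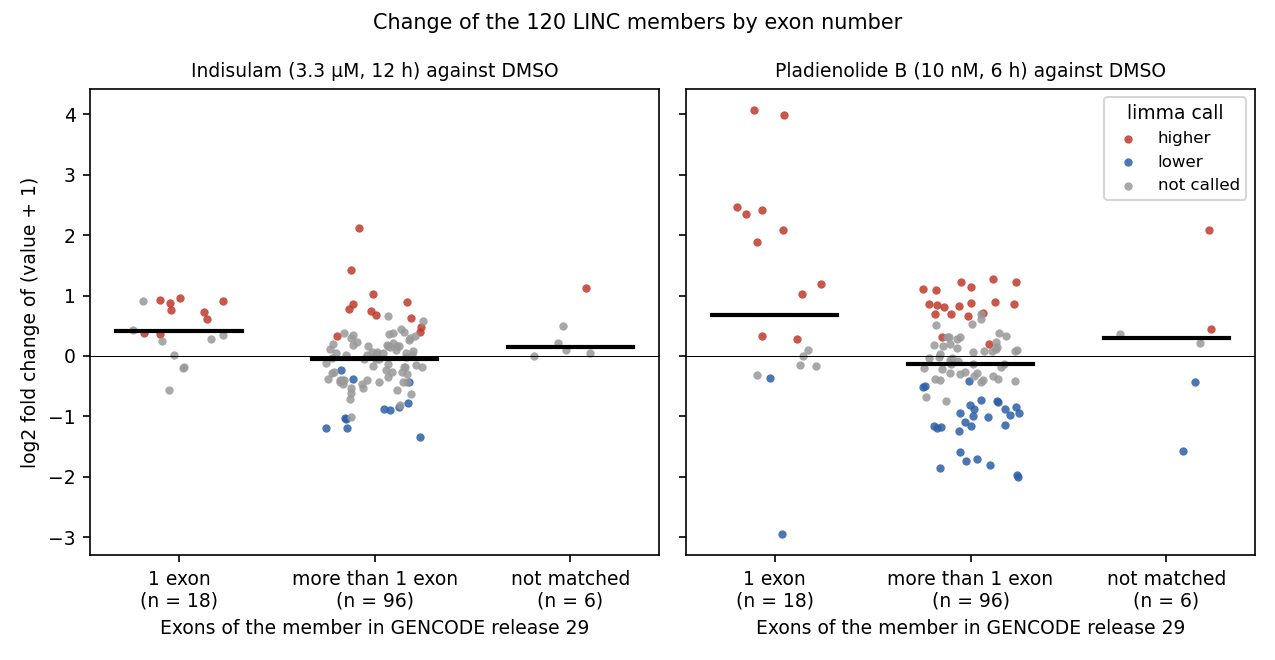
Log2 fold change of each of the 120 LINC RNAs against DMSO, by annotated exon number, for indisulam on the left and pladienolide B on the right. Points are members coloured by the limma call, and black bars are medians, at 0.41 and 0.68 for 1 exon and at -0.04 and -0.13 for more.

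Many members lie close to a coding gene. The median distance to the nearest tested protein-coding feature was 19839 bp, 39 members lay within 5 kb of one and 23 over 100 kb away. In 18 cases, called divergent pairs here, the member and a coding gene start on opposite strands within 5 kb of each other. Most of these point apart without overlap. LINC01560, LINC01547 and LINC00476 instead overlap their partners ZNF41, FAM207A and ERCC6L2, so reads there cannot be told apart. Among the 18 pairs, 6 members rose with pladienolide B, of which 1 had a partner that rose and 3 had partners that fell. The 5 that fell had 4 partners that rose and 1 that fell. The 7 not called had 2 partners that rose and 4 that fell. Over all features tested, 34.3% rose and 35.5% fell with pladienolide B. LINC00235, LINC01560, LINC01521 and LINC01124 among the rises had 1 exon, and every member that fell had more. The part of exon number in this was not tested. Falling partners were no more frequent beside the 6 members that rose (3) than beside the 7 not called (4). Opposite movement in these pairs was thus seen only beside the 5 that fell. Nearest coding neighbours at any distance did not show an opposite movement. The 32 members that rose had 14 neighbours that rose and 13 that fell, and the 33 that fell had 13 that rose and 16 that fell. Among the 39 members within 5 kb, which include the 18 pairs, 11 rose, with 4 neighbours that rose and 5 that fell. The 11 that fell had 8 that rose and 2 that fell, so opposite moves of falling members were not particular to divergent starts. With indisulam 4 of the 18 members in divergent pairs rose and 2 fell, and the only partner called was SLC12A2, which fell beside LINC01184.

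The pair of LINC00235 and CAPN15, a calpain-family protease gene whose start lies 305 bp away, moved furthest apart. CAPN15 changed by -1.95 ± 0.09 with pladienolide B (limma adjusted p = 4.31e-10) while LINC00235 rose by 3.99. LINC00235 is a member only through the pladienolide B libraries, so its side of this distance was favoured by the choice of members. ZNF41, a zinc finger gene, fell by 0.81 beside LINC01560, with the reservation that the features overlap, and PATZ1, a zinc finger transcription factor gene, fell by 0.53 beside LINC01521. LINC00205 and POFUT2, which codes for a protein O-fucosyltransferase, rose by 0.31 ± 0.12 and 0.30 ± 0.10. The LINC00205 call was lost with TMM scaling, with no filter, without DMSO replicate 2, DMSO replicate 3 or pladienolide B replicate 1, and turned to -0.16 with the same total per library.

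In the other direction, LINC00857 fell by 0.94 ± 0.12 while ANXA11, an annexin gene, rose by 0.30 ± 0.06. LINC01232 fell by 1.16 ± 0.28 while TM9SF2 rose by 0.58 ± 0.06. LINC01089 and LINC00894 fell by 0.73 and 0.88 beside rises of SETD1B, a histone methyltransferase gene (0.32), and EOLA2 (0.72). LINC01833 fell together with SIX3, a homeobox gene (-2.41 ± 0.38). LINC00261, an RNA of endoderm that lies beside the forkhead gene FOXA2 on the same strand, stood at 535, 549.6 and 359.7 in DMSO and at 290.0, 253 and 124 with pladienolide B (-1.17 ± 0.28, limma adjusted p = 0.00217). FOXA2, 2356 bp away, rose by 1.14 ± 0.13.

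**Figure D5:**
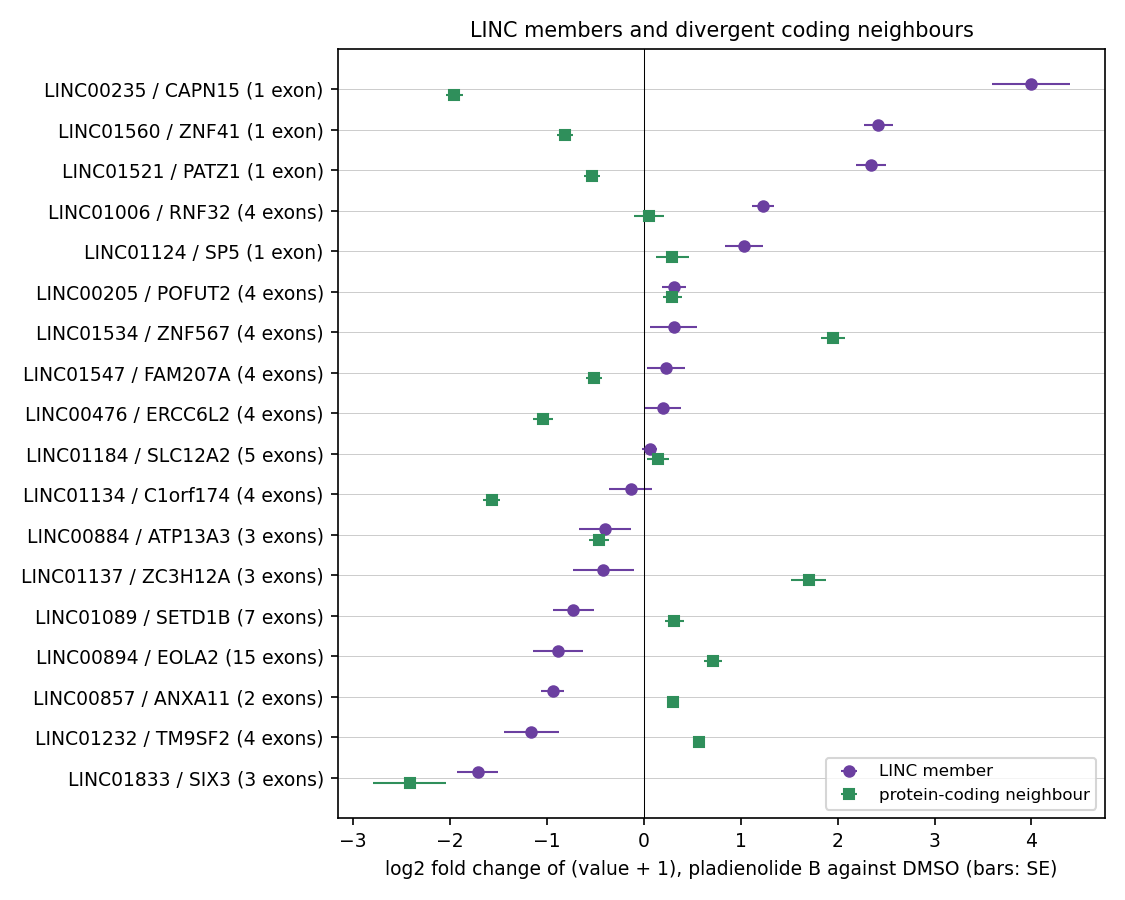
Log2 fold change with pladienolide B against DMSO for the 18 LINC RNAs that start within 5 kb of a coding gene on the opposite strand (circles) and for that gene (squares), with SE as bars. LINC00235 at 3.99 and CAPN15 at -1.95 lie furthest apart, and 4 of the 5 LINC RNAs that fell have a partner that rose. LINC00235 is a member only through its pladienolide B values.

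The promoters below are shown for LINC00628 and LINC00235, which rose most with pladienolide B, and for LINC00472, the most abundant RNA that rose with indisulam. LINC00628 and LINC00235 are members only through the pladienolide B libraries. Each promoter shown is the 250 bases before and 50 bases from the start site, from RefSeq on GRCh38.p14. The promoters lie on the minus strand at chr1:204369670-204369969, chr16:527358-527657 and chr6:71420696-71420995, in the order printed. Capitals mark the GC box, the only motif of those searched that occurs here, at -196, -99 and -39 in LINC00235 and at -188 and -136 in LINC00472, counted from the start site as 0. The LINC00235 window covers most of the stretch between its start and that of CAPN15.
LINC00628: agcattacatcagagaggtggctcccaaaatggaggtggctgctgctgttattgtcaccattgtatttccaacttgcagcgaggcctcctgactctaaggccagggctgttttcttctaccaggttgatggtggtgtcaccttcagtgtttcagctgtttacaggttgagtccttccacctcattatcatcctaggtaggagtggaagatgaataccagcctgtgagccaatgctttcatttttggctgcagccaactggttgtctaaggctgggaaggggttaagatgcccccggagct
LINC00235: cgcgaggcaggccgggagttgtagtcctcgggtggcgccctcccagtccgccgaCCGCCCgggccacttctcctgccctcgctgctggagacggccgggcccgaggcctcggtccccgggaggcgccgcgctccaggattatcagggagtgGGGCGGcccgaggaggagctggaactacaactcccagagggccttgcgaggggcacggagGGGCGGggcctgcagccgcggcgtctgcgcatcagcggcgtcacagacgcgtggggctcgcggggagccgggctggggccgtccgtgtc
LINC00472: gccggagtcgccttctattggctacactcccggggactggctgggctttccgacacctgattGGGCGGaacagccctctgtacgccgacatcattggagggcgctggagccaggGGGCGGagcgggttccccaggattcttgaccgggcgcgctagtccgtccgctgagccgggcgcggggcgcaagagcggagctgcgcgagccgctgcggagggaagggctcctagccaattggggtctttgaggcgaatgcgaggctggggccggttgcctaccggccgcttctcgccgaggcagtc

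RefSeq promoters matched 76 of the members, 66 by symbol and 10 by an older symbol, and in 2 the start lay outside the deposited feature. Motifs were searched on both strands, none of the motifs contains another, and overlaps between different motifs were not removed. The AP-1 motif TGACTCA, bound by FOS and JUN proteins, was in 13 of 76 (17.1%), beside 4.95% of all 35116 promoters. It was in 1 of 19 promoters of members that rose with pladienolide B, that of LINC00460, and in 5 of 21 of those that fell. The TATA box TATAAA was in 13.2% beside 11.5%, the CRE TGACGTCA in 2.63% beside 1.85%, the E-box CACGTG in 7.89% beside 7.26% and the GC box GGGCGG in 47.4% beside 45.0%. The median GC content was 60.5% in members and 58.7% in all promoters. A match describes the letters only.

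Of 24 LINC RNAs listed for their use in cancer studies, 14 were members. LINC01116 stood at 1534, 1583 and 1562 in DMSO, 1192, 1227 and 1191 with indisulam and 1808, 1692 and 1698 with pladienolide B. It fell with indisulam (-0.37 ± 0.07, limma adjusted p = 0.00135), and the pladienolide B difference did not pass (0.15 ± 0.07, adjusted p = 0.0627). LINC00467, a target of N-Myc in neuroblastoma, went from 744, 644 and 693 to 1246, 956 and 1187 with pladienolide B (0.70 ± 0.11, limma adjusted p = 5.88e-05), and LINC00460 from 47.8, 42.1 and 59.1 to 89.3, 81.3 and 98.9 (0.85 ± 0.23, limma adjusted p = 0.00516). Both calls were lost with the same total per library (adjusted p = 0.112 and 0.161). LINC00673, which promotes degradation of the phosphatase PTPN11, stood at 688, 696 and 678 in DMSO and at 457, 544 and 525 with pladienolide B (-0.44 ± 0.10, limma adjusted p = 0.000987), lost with quantile normalisation (0.665). LINC00941, LINC00662, LINC00665, LINC00707 and LINC00963 passed with neither drug. LINC00665, which codes for a micropeptide in triple-negative breast cancer cells, stood at 321 to 405 in DMSO, 328 to 397 with indisulam and 355 to 499 with pladienolide B. Of the names that missed the limit, LINC00511 had a mean of 11.3, LINC00473 of 3.54 and LINC00337 of 28.4.

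Among other long noncoding RNAs, 31 of 42 listed symbols were tested, as 32 features. With indisulam 10 rose and 5 fell (median 0.03), beside 14.5% and 12.4% of all features tested. With pladienolide B 18 rose and 5 fell (median 0.53, beside -0.01 over all features), where 34.3% and 35.5% of all features did. The snoRNA hosts SNHG17, SNHG15 and SNHG16 led the rises with pladienolide B at 2.40 ± 0.11, 2.06 ± 0.09 and 1.55 ± 0.07, and SNHG12, another host, fell by 1.54 ± 0.12. With indisulam LINC-PINT, a p53-induced RNA, rose by 1.09 ± 0.17 in a first feature and by 0.71 ± 0.16 in another. MANCR, a breast cancer RNA known earlier as LINC00704, fell with indisulam from 2521 ± 273 to 466 ± 39.5 (SD, n = 3). This was a log2 fold change of -2.43 ± 0.11 (limma adjusted p = 6.28e-08). CYTOR, earlier LINC00152, rose by 0.46 ± 0.06 with pladienolide B and stood at 8686 ± 119 in DMSO and 8369 ± 202 with indisulam.

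The nuclear exosome and its adaptors, which degrade many such RNAs, were listed as 28 genes, of which 27 were tested. With indisulam 7 rose and 4 fell, and with pladienolide B 9 rose and 11 fell. Over all features tested, 34.3% rose and 35.5% fell with pladienolide B, so the pladienolide B counts lie near the background. With indisulam 14.5% of all features rose and 12.4% fell. Rises and falls both made larger shares of this list there, while its median log2 fold change was -0.04, beside 0.05 over all features. ZFC3H1, an adaptor that directs polyadenylated nuclear RNA to the exosome, fell with pladienolide B from 3896 ± 358 to 632 ± 130.1 (SD, n = 3; -2.64 ± 0.13, limma adjusted p = 9.43e-10). ZC3H3 and ZCCHC7 fell by 2.22 and 1.76 on the log2 scale, while the exosome subunits EXOSC6 and EXOSC5 rose by 0.83 and 0.68. With indisulam EXOSC8 fell by 0.85 and the cap-binding gene NCBP1 by 0.65, and EXOSC7 rose by 0.60. The part of these genes in the levels of the LINC RNAs was not tested.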

How the data were processed

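Poly-A RNA was sequenced from MDA-MB-231 cells in 9 libraries. Tools listed in the submitters' processing notes are STAR 2.7.5a, SAMtools, Picard, FastQC and DESeq2, with build hg38. How features were counted, and on which strand, is not given in the sources used here. Per feature, the deposited signal is a read count divided by 1 DESeq2 size factor per library, per the labels and the name of the deposited table. Whole reads were recovered in every library (100% of values within 0.01 of a whole read).

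Tests used limma 3.58.1 under R 4.3.3. All 9 libraries entered 1 fit of log2(value + 1), a mean per group, moderated variances with a mean trend and two-sided p-values. Features with a mean of at least 10 were tested, 16846 in all, with Benjamini-Hochberg adjustment over all of them at 0.05. The log2(value + 1) scale understates changes of low genes. The fit was tested on simulated data. Limits of 3 reads correspond to 2.48 to 3.87 normalised reads and cover counting error only. Every pair within a group differed by more than sampling noise.

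The 46 named members are the 6 highest means, the 8 largest called rises and falls per drug and the 4 between the drugs without overlap of groups, the 3 on each side of the limit, and a list of names used in cancer studies. Other members that are named, such as divergent pairs, single-exon members and promoters with AP-1, were chosen after their values were seen. The members and lists were chosen with earlier results of these data known. Exons come from GENCODE 29 and promoters from RefSeq, both of the build of the deposited coordinates. edgeR 4.0.16 and DESeq2 1.42.0 on the recovered reads were alternatives. A marker gene is not reported here.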

Additional observations from a re-analysis of the deposited data

How the results depend on the processing

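Alternatives were other scalings (TMM, the same total per library, quantiles), pseudocount 10, a mean of at least 50 or no filter, only features with a symbol, edgeR and DESeq2 on recovered reads, only the groups compared, a replicate block, and leaving out each library. The same total moved the median of all features with pladienolide B from -0.01 to -0.48, and with it 65 members were lower, 15 were higher against indisulam, and LINC00674 (-0.27), LINC01000 (-0.021), LINC00205 (-0.16), LINC01116 (-0.32) and LINC00941 (-0.29) turned against their reported direction. Among all called features the higher ones made 49.1% with pladienolide B, 45.0% with TMM and 23.1% with the same total, and with indisulam 53.8%, 42.9% and 40.3%. The split by exon number was recomputed after seeing the data: with the same total 6 single-exon members fell with pladienolide B, 12 with more exons rose and 57 fell, and with quantile normalisation 1 single-exon member fell and 29 with more exons rose. The number of single-exon rises with pladienolide B was 9 with the same total. Same-numbered libraries did not deviate together in every pair (correlations 0.00 to 0.13), and not every library correlated best with its own number, so the numbers were not used as pairs; the replicate block gave 20 members lower with indisulam, 20 of them with more exons. Leaving out 1 library gave 15 to 24 rises and 9 to 15 falls with indisulam, 28 to 33 and 29 to 35 with pladienolide B, and 33 to 36 and 33 to 37 between the drugs. Single-exon rises ranged from 5 to 10 with indisulam and single-exon falls from 1 to 3 with pladienolide B, the lowest without DMSO replicate 3. Of the reported calls, 15 of 22 rises and 7 of 12 falls with indisulam, 22 of 32 and 26 of 33 with pladienolide B, and 15 of 35 and 26 of 37 between the drugs, were kept in every alternative run. Depth limits the lowest members, where 3 reads are worth up to 3.87.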
